A study of Mus musculus with 6 samples.

Results

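The genes described here are those that make, sense, move and store sterols, together with enzymes of fatty acid synthesis that share their regulators. They were chosen by symbol: 33 named members were looked up in a deposited table of 23608 rows, all 33 were found, and 32 passed the filter on low counts. The measurements came from bulk RNA sequencing of Lin- c-Kit+ GFP+ splenocytes, the leukemia cells of mice with AE9a-driven acute myeloid leukemia, where AE9a is a shortened form of the AML1-ETO fusion protein. All 6 libraries came from Usp18+/f UBCER-Cre leukemia cells, which the study made by transducing fetal liver cells with a retrovirus carrying AE9a and GFP and then grew in adult wild-type C57BL/6 recipients. The 3 oil libraries (Usp18+/f) came from recipients given the corn oil carrier, and the 3 tamoxifen libraries (Usp18+/Δ) from recipients given tamoxifen, which activates the Cre and is meant to remove the floxed copy of Usp18. Cells were sorted 3 days after the first injection. Every leukemia cell carried the Cre, the hosts did not, and no library came from tamoxifen-treated cells without the floxed allele, so an action of tamoxifen or of Cre cannot be told apart from loss of Usp18.

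Cells build cholesterol from acetyl-CoA through mevalonate, farnesyl diphosphate, squalene and lanosterol. When sterols in the endoplasmic reticulum run low, the escort protein SCAP carries the SREBP transcription factors to the Golgi, where they are cut and released to switch on the genes of synthesis and uptake, whereas INSIG proteins hold SCAP back when sterols are plentiful. Oxysterols made from surplus cholesterol activate the LXR receptors, which switch on export genes such as Abca1 and the lipogenic regulator Srebf1, and in dividing leukemia cells this balance supplies membrane and the prenyl groups that anchor small GTPases.

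The libraries held between 17118964 and 20741399 estimated counts, and 11614 genes were tested with edgeR's quasi-likelihood test at a Benjamini-Hochberg adjusted p-value under 0.05. Values by library are given in CPM (counts scaled to the TMM-normalized library total) and in the order oil 1, 3 and 4 and then tamoxifen 1, 2 and 4. Usp18 itself stood at 9.12, 11 and 11.2 CPM in the oil libraries and at 15.1, 28.0 and 19.4 CPM in those labeled tamoxifen. Its values were thus higher, not lower, in the group meant to have lost the floxed copy, and the cause was not tested (log2 fold change 1.0, SE 0.23, edgeR adjusted p = 0.0739, and 0.00654 without tamoxifen 4). Transcripts elsewhere in a gene do not show whether the floxed part was deleted, and the counts are per gene. Tamoxifen 4 stood apart from the other tamoxifen libraries: chi-square per degree of freedom was 57.2 and 69.0 between it and them, against 18.4 between tamoxifen 1 and 2 and 7.30 to 10.1 among the oil libraries. Cd34, a progenitor marker, was at 8.43 to 11.7 CPM with oil, at 113 and 134 CPM in tamoxifen 1 and 2, and at 41.8 CPM in tamoxifen 4. Kit, the gene of the sorted surface receptor, was at 439 to 451 CPM with oil and at 651, 781 and 447 CPM with tamoxifen. Markers of B, T, NK and neutrophil cells summed to at most 0.878 CPM in any library, whereas the 8 erythroid markers summed to 2781 to 4290 CPM with oil and 2247 to 5114 CPM with tamoxifen. In sorted bulk samples, fewer cells of a kind and less RNA per cell cannot be told apart.

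No sterol or lipogenic member passed the edgeR test over all 6 libraries. The members sat lowest in tamoxifen 1, with a median shift from the oil mean of -0.30 on the log2 scale, whereas tamoxifen 2 was level with oil 3 (both -0.13) and tamoxifen 4 lay near the oil mean (-0.02). Soat1, which stores cholesterol as esters, was at 4.68 ± 1.10 CPM with oil and 10.4 ± 3.08 CPM with tamoxifen (SD, n = 3). Of the 32 tested members, 0 were called higher and 0 lower in edgeR, where 1.75% of all genes tested were called higher and 0.267% lower. DESeq2 called 1 member higher (Soat1, where it called 5.91% of all genes higher) and 0 lower, where it called 1.76% of all genes lower, and limma-voom called 0 in either direction, where it called 0.413% higher and 0.0517% lower. At an unadjusted p-value under 0.05 in edgeR, 5 members were lower (Fdps, Srebf1, Srebf2, Insig1 and Nr1h2, against 7.99% of all genes) and 2 were higher (Fdft1 and Soat1, against 12.6% of all genes). Lower at that unadjusted threshold were 6 members with DESeq2 (7.98% of all genes), 6 with limma-voom (9.14%) and 7 without a low-count filter (7.26%). The log2 fold change was below 0 for 26 of 32 members, where 50% of all genes lay below 0, though Hmgcs1, Msmo1 and Hsd17b7 turned above 0 with upper-quartile normalization. Its median was -0.14 over the members and 0.00 over all genes. The 95% interval lay within a 2-fold change either way for 29 of 32 members, all but Idi1, Insig1 and Soat1, and within a 1.5-fold change for 19 of 32.

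**Figure D1:**
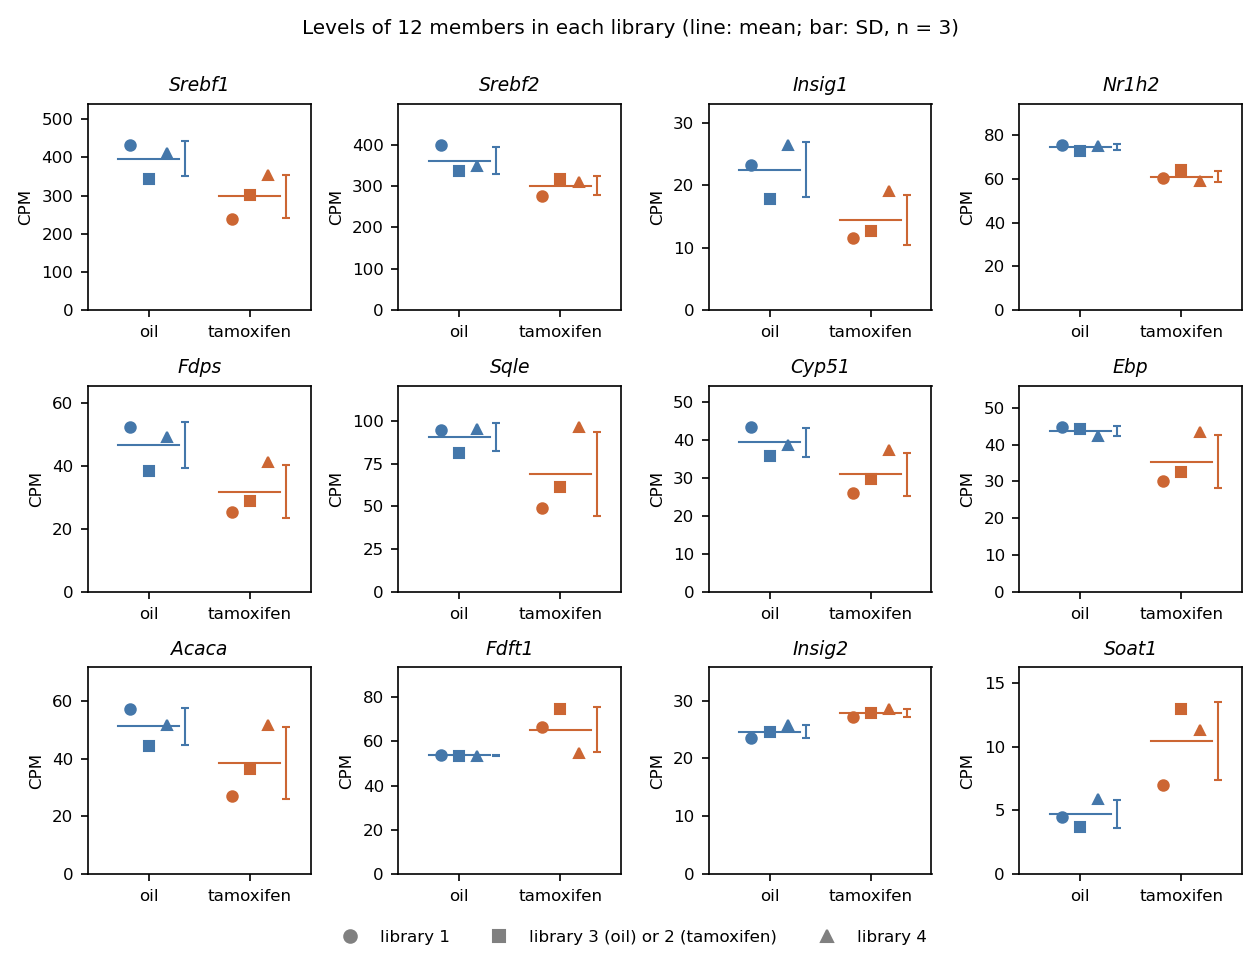
Level of 12 members in each library, in CPM on axes that start at 0, with oil in blue, tamoxifen in orange, a horizontal line at the mean of 3 libraries, a bar for the SD and a marker shape for the library. For Sqle, Ebp and Acaca tamoxifen 4 (triangle) lies at the level of oil while tamoxifen 1 and 2 lie below. For Srebf2, Nr1h2, Fdft1, Insig2 and Soat1 the groups do not overlap.

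Levels between genes are compared per kilobase of exon. On that scale the most abundant members of the oil libraries were the desaturase gene Scd2 at 175 CPM per kb, the sterol reductase gene Lbr at 114, and the transcription factor genes Srebf1 at 70.3 and Srebf2 at 50.3. The lowest tested members were Soat1 at 0.478 and Tm7sf2 at 0.581 CPM per kb. Lbr and Tm7sf2 encode reductases for the same sterol step, and the protein of Lbr lies in the inner nuclear membrane. Nr1h3, the gene of LXR alpha, was at 0.507, 0.775 and 0.103 CPM with oil and at 0.220, 0.295 and 0.221 CPM with tamoxifen. It was the 1 member left out by the filter, whereas Nr1h2, the gene of LXR beta, was detected in every library at 22.1 CPM per kb of oil. The exons of 13 of the 33 members overlap exons of another annotated gene, and the strand setting of the counting is not stated, so shared reads could be assigned to either gene.

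The promoters of the members were searched for motifs, and stretches of Hmgcs1, Insig1, Mvk and Soat1 are shown. RefSeq start sites on GRCm38.p6 gave 36 windows, from 250 bases before to 50 after the start, for 27 of the 33 members. Fdps, Fdft1, Sqle, Npc1, Stard4 and Scd2 had none in the table. The motifs searched on both strands were the sterol regulatory element (ATCAC, any base, CCAC) and its core CACNCCAC, which lies inside it, and the CCAAT box, the GC box GGGCGG and the E-box CACGTG. The whole element was in none of the member windows and in 0.234% of all 32851 windows, and the core was in 8.33% of member windows (Acat2, Hmgcs1 and Insig1) against 6.24% of all. The CCAAT box was in 63.9% of member windows against 37.4% of all, the GC box in 72.2% against 35.7%, and the E-box in 16.7% against 7.15%. Such matches describe letters and not binding, and some genes have several windows.

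The stretches below lie upstream of the first exon, 5′ to 3′ on the strand of the gene, with the CCAAT box, its reverse complement ATTGG or the core in capitals. They are the upstream stretches of Hmgcs1 (chr13:119690101-119690350, plus strand), Insig1 (chr5:28071162-28071362, plus strand), Mvk (chr5:114444061-114444268, plus strand) and Soat1 (chr1:156474332-156474578, minus strand). Among the genes shown, the level of Hmgcs1 differed least and Mvk had the most CCAAT boxes. Among the tested members, Insig1 had the largest decrease in value and Soat1 the largest increase.
Hmgcs1: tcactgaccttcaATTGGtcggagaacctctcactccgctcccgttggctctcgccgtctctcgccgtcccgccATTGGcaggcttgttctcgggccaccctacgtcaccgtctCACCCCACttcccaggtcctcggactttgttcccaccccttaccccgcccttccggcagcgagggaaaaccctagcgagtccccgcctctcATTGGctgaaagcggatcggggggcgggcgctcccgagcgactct
Insig1: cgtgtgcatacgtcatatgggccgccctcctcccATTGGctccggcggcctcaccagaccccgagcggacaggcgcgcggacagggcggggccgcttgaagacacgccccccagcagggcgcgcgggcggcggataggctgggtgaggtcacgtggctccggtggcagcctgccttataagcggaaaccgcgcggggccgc
Mvk: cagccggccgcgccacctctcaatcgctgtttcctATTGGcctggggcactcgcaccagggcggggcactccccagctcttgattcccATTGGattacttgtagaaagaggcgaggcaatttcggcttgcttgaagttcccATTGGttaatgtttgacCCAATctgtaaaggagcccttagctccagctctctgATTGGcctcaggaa
Soat1: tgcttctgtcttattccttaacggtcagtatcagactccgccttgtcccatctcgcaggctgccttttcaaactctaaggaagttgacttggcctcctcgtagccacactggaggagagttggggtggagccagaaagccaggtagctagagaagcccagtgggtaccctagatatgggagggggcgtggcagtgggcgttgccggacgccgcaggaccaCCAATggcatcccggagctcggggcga
Hmgcs1 holds 3 CCAAT boxes and 1 core in this stretch, Mvk holds 5 CCAAT boxes, and Insig1 and Soat1 hold 1 each, while their log2 fold changes, given with each gene, were -0.01, -0.05, -0.64 and 1.16. A core match of Insig1 lies from 9 to 2 bases before the RefSeq start, on the minus strand and outside the stretch shown.

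The mevalonate steps begin with Acat2, which joins acetyl-CoA units, and Hmgcs1, which makes HMG-CoA. Acat2 was at 32 ± 1.91 CPM with oil and at 31.2 ± 1.37 CPM with tamoxifen (SD, n = 3). Hmgcs1 was at 39.6, 36.7 and 44.6 CPM with oil and at 40.6, 39.0 and 40.0 CPM with tamoxifen. For both, the groups overlapped and the spread within oil exceeded the difference of the means, with log2 fold changes of -0.04 (95% interval -0.27 to 0.19) and -0.01 (-0.25 to 0.22). The kinases Mvk and Pmvk and the decarboxylase Mvd, which turn mevalonate into isopentenyl diphosphate, had means of 12.7 ± 2.90, 23.8 ± 3.45 and 8.45 ± 1.59 CPM with oil and 12.3 ± 4.69, 22.3 ± 2.54 and 8.06 ± 1.41 CPM with tamoxifen (SD, n = 3). Their log2 fold changes were -0.05, -0.09 and -0.07 (edgeR adjusted p = 0.936, 0.728 and 0.866). Mvk, shown with 5 CCAAT boxes, spanned 8.51 CPM in tamoxifen 1 to 17.5 CPM in tamoxifen 4, and its interval of -0.70 to 0.61 was the widest of these 5 members.

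The next enzymes, Idi1, which isomerizes isopentenyl diphosphate, and Fdps, which makes the farnesyl diphosphate used for sterols and for prenylation, had the largest log2 fold changes of the mevalonate steps. Idi1 was at 13.8, 7.46 and 15.1 CPM with oil and at 5.82, 8.80 and 10.1 CPM with tamoxifen, so oil 3 lay among the tamoxifen libraries. Its log2 fold change was -0.56 (SE 0.30, 95% interval -1.26 to 0.14, edgeR adjusted p = 0.321). Fdps was at 52.5, 38.5 and 49.2 CPM with oil and at 25.5, 29.0 and 41.3 CPM with tamoxifen. Tamoxifen 1 and 2 lay below every oil library and tamoxifen 4 above oil 3, and the log2 fold change was -0.55 (SE 0.20, 95% interval -1.0 to -0.10, unadjusted p = 0.0230 and adjusted p = 0.191 in edgeR). Fdps (chromosome 3, 89093588 to 89101959, minus strand, mm10) shares 1124 bases of exon with the gene model Gm43738 on the same strand.

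At the entry to the sterol branch, Fdft1, which makes squalene, and Sqle, which oxidizes it, went opposite ways in tamoxifen 1 and 2. Fdft1 was at 53.9, 53.5 and 53.5 CPM with oil and at 66.5, 74.7 and 54.7 CPM with tamoxifen. All tamoxifen libraries lay above all oil libraries, tamoxifen 4 by under the spread of the tamoxifen libraries, and the log2 fold change was 0.28 (SE 0.12, unadjusted p = 0.0449 and adjusted p = 0.236 in edgeR). Fdft1 (chromosome 14, 63145150 to 63179578, minus strand, mm10) shares 774 bases of exon with Ctsb, a lysosomal protease gene on the opposite strand, which was at 464 ± 24.4 CPM with oil and at 540, 544 and 413 CPM with tamoxifen. Ctsb was thus also higher in tamoxifen 1 and 2, and the part of its reads in the Fdft1 values was not tested. Sqle was at 94.5, 81.1 and 95.4 CPM with oil and at 49.2, 61.4 and 96.4 CPM with tamoxifen, so that tamoxifen 4 was the highest of all 6 libraries. Its log2 fold change was -0.39 (SE 0.22, edgeR adjusted p = 0.343). Lss, which closes the sterol rings to lanosterol, was at 31.1 to 39.6 CPM with oil and at 35.3 to 37.4 CPM with tamoxifen (log2 fold change -0.02, edgeR adjusted p = 0.921).

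All 9 tested genes of the steps from lanosterol to cholesterol had a log2 fold change at or below 0, with a median of -0.26, although Msmo1 and Hsd17b7 turned above 0 in some other settings, and 0 of the 9 were called in edgeR. Cyp51, the demethylase that acts on lanosterol, was at 43.6, 36 and 38.8 CPM with oil and at 26.2, 29.8 and 37.3 CPM with tamoxifen (log2 fold change -0.34, SE 0.15, edgeR adjusted p = 0.243). Ebp, the sterol isomerase, was at 44.8, 44.2 and 42.2 CPM with oil and at 30.1, 32.6 and 43.5 CPM with tamoxifen (log2 fold change -0.30, SE 0.14, edgeR adjusted p = 0.274). Lbr was at 551, 541 and 534 CPM with oil and at 444, 461 and 540 CPM with tamoxifen (log2 fold change -0.17, edgeR adjusted p = 0.340). In all 3 genes tamoxifen 1 and 2 lay below every oil library, while tamoxifen 4 lay within the oil range. Nsdhl, which removes a carboxyl group from the ring, and Sc5d, the sterol desaturase, showed the same order: 20.1 to 26.5 CPM with oil against 16.7, 18.8 and 22.1 CPM for Nsdhl, and 20.6 to 29.5 CPM against 19.5, 18.1 and 25.1 CPM for Sc5d. Their log2 fold changes were -0.30 and -0.26 (edgeR adjusted p = 0.312 and 0.412). Dhcr7, which reduces the last double bond on one route to cholesterol, was at 140 to 156 CPM with oil and at 120 to 140 CPM with tamoxifen (log2 fold change -0.14, edgeR adjusted p = 0.411). Tm7sf2 stayed between 1.66 and 2.91 CPM in all 6 libraries (-0.36, edgeR adjusted p = 0.458). The oxidase Msmo1 and the reductase Hsd17b7 had log2 fold changes of -0.01 and -0.00 (edgeR adjusted p = 0.978 and 0.998), and in both genes tamoxifen 4 was the highest library, at 26.4 and 17.5 CPM.

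**Figure D2:**
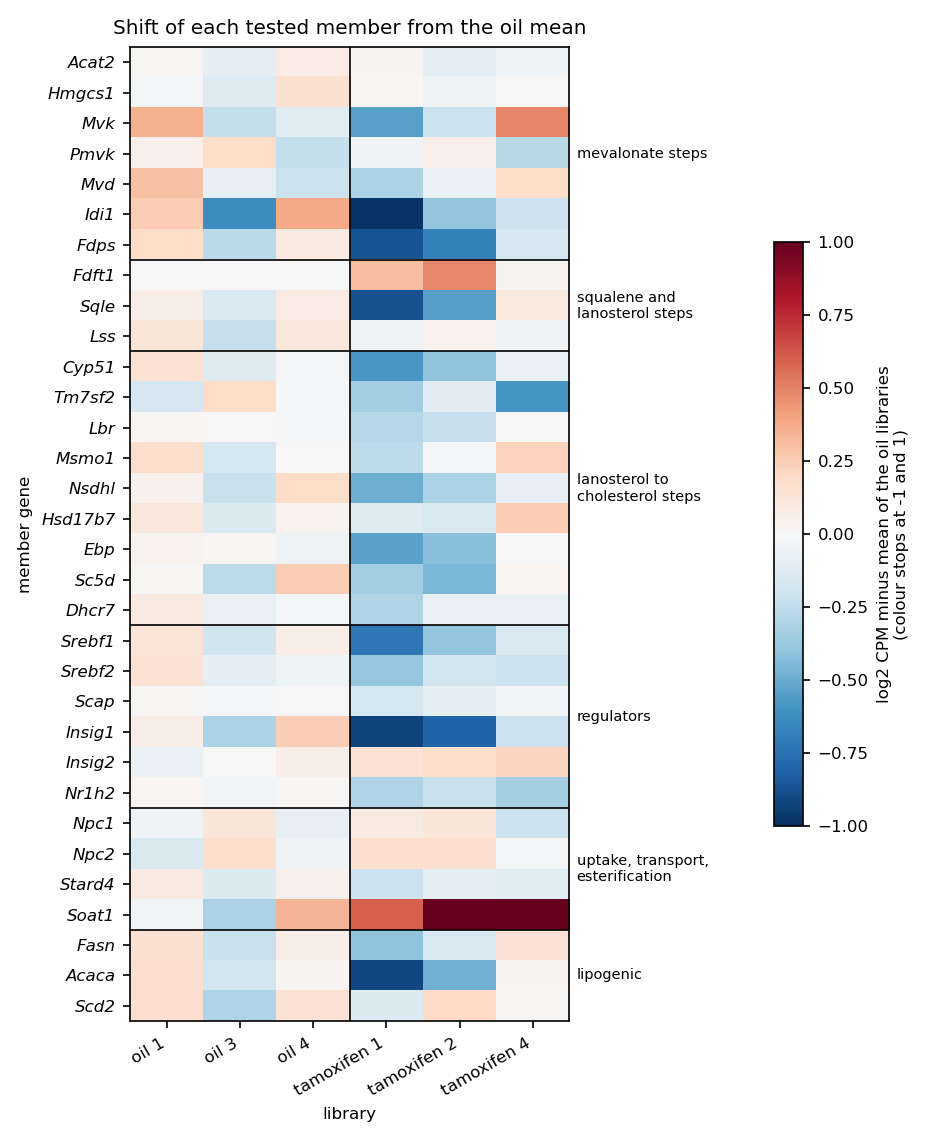
Shift of each tested member in each library, as log2 CPM minus the mean of the 3 oil libraries, with members in rows by role, libraries in columns, blue for negative and red for positive shifts and colors that stop at -1 and 1. The median member shift was -0.30 in tamoxifen 1, -0.13 in oil 3 and in tamoxifen 2, and -0.02 in tamoxifen 4.

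Among the regulators, Srebf1, Srebf2, Scap and Insig1 had lower means with tamoxifen, without passing the adjusted threshold. Srebf1 (chromosome 11, 60199089 to 60222581, minus strand, mm10), whose product drives mainly lipogenic genes, was at 432, 344 and 412 CPM with oil and at 240, 300.4 and 354 CPM with tamoxifen. Only tamoxifen 4 reached the oil range, and only above oil 3, and the log2 fold change was -0.41 (SE 0.15, 95% interval -0.76 to -0.06, unadjusted p = 0.0268 and adjusted p = 0.202 in edgeR). Srebf2 (chromosome 15, 82147181 to 82205379, plus strand), whose product drives mainly sterol genes, was at 399, 336 and 349 CPM with oil and at 275, 317 and 310 CPM with tamoxifen. Its groups did not overlap, and the log2 fold change was -0.26 (SE 0.10, 95% interval -0.50 to -0.03, unadjusted p = 0.0300 and adjusted p = 0.208 in edgeR). Scap was at 151 to 154 CPM with oil and at 135, 143 and 150 CPM with tamoxifen, also without overlap, and its log2 fold change was small (edgeR adjusted p = 0.496).

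The INSIG genes lay on opposite sides. Insig1, itself a gene that SREBP switches on and shown with 1 CCAAT box, was at 23.3, 17.8 and 26.4 CPM with oil and at 11.6, 12.7 and 19.1 CPM with tamoxifen. Tamoxifen 1 and 2 lay below every oil library and tamoxifen 4 between oil 3 and oil 1. The log2 fold change of Insig1 was -0.64 (SE 0.23, 95% interval -1.15 to -0.12, unadjusted p = 0.0220 and adjusted p = 0.188 in edgeR). It was the largest decrease in value among the tested members. Insig2, whose level depends less on SREBP, was at 23.5, 24.5 and 25.8 CPM with oil and at 27.2, 27.9 and 28.6 CPM with tamoxifen. All its tamoxifen libraries lay above all its oil libraries, but by a small amount (log2 fold change 0.18, SE 0.10, edgeR adjusted p = 0.336). Nr1h2 (chromosome 7, 44549616 to 44553951, minus strand) was at 75.3, 72.7 and 74.8 CPM with oil and at 60.2, 63.8 and 58.9 CPM with tamoxifen. Here tamoxifen 4 was the lowest library, and the gap between the groups exceeded the range within each. Its log2 fold change was -0.28 (SE 0.08, 95% interval -0.47 to -0.10, unadjusted p = 0.0075 and adjusted p = 0.117 in edgeR).

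**Figure D3:**
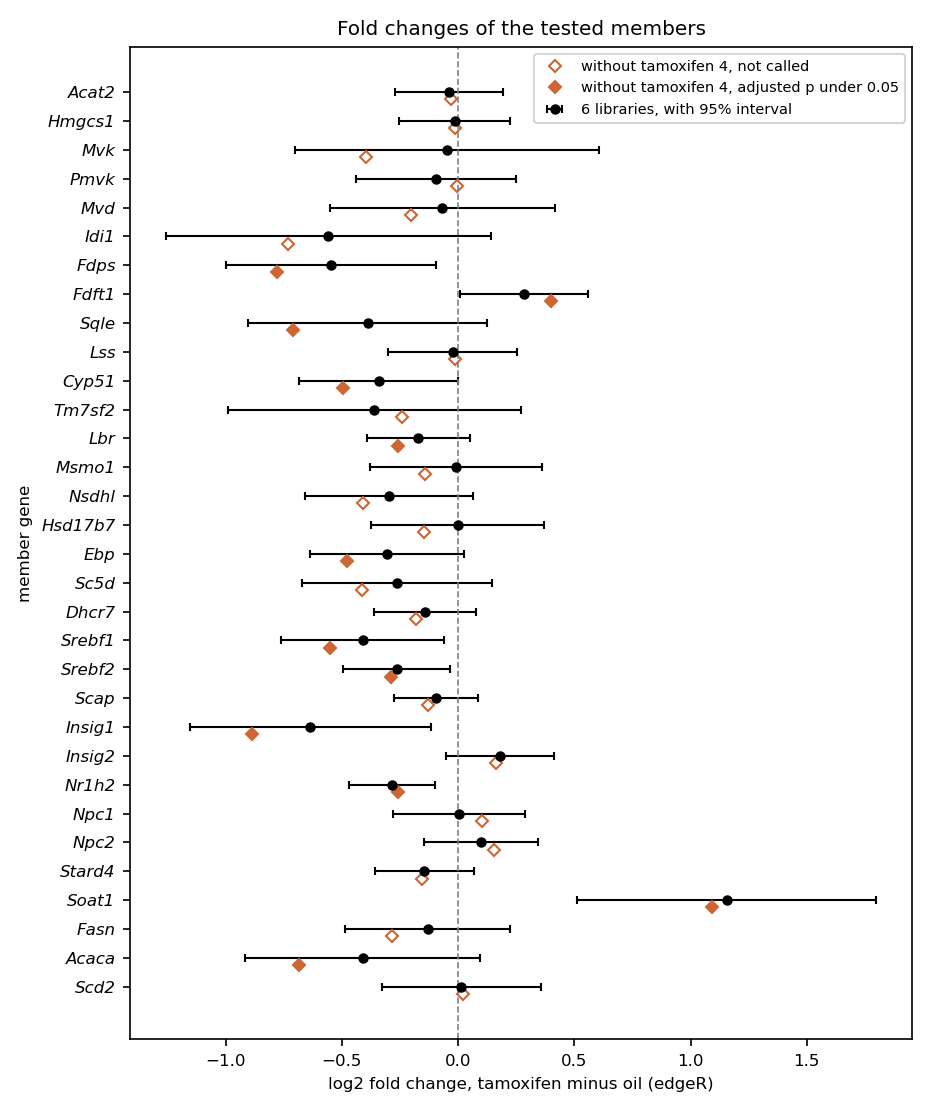
Log2 fold change of each tested member, tamoxifen minus oil, with its 95% interval over 6 libraries (black), and the same value without tamoxifen 4 (diamonds, filled where the edgeR adjusted p-value was under 0.05). Soat1 lies farthest to the right at 1.16 and Insig1 farthest to the left at -0.64, and 12 diamonds are filled.

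Soat1, which esterifies cholesterol for storage in droplets, had the largest log2 fold change of any member. It lies on chromosome 1, 156424525 to 156474331, minus strand. It was at 4.50, 3.68 and 5.87 CPM with oil and at 7.02, 13.0 and 11.3 CPM with tamoxifen. The groups did not overlap and tamoxifen 4 was on the high side, unlike most other members, where it lay near oil. The log2 fold change was 1.16 (SE 0.28, 95% interval 0.51 to 1.80, unadjusted p = 0.0032), and the edgeR adjusted p-value was 0.0827 over 6 libraries. DESeq2 called it (log2 fold change 1.15, DESeq2 adjusted p = 0.00415), as did edgeR without a filter on low counts (adjusted p = 0.0486, where 2.42% were called higher). The macrophage and monocyte markers, whose cells also express Soat1, summed to 7.65, 3.93 and 4.68 CPM with oil and to 9.49, 13.2 and 6.63 CPM with tamoxifen, with 0 of their 6 tested genes of 9 called in edgeR. The groups overlapped in this sum, since tamoxifen 4 lay below oil 1. Vcam1 was at 0.832 ± 0.276 CPM with oil and 3.05 ± 1.19 CPM with tamoxifen, and Cd68 at 1.27 ± 0.220 and 2.48 ± 0.770 CPM. C1qa and Csf1r had log2 fold changes of 1.20 and 0.34, whereas C1qb and C1qc had -0.17 and -0.12. Without tamoxifen 4, edgeR adjusted p-values were 0.00254 for Vcam1 and 0.0210 for Cd68, where 19.2% of all genes were called higher. For C1qa, Csf1r, C1qb and C1qc they were 0.176, 0.322, 0.489 and 0.991. None of the 9 was at 0 in every library, and their part in the Soat1 values was not tested.

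The other transport genes showed little difference. Npc1 and Npc2, which hand cholesterol out of the lysosome, had log2 fold changes of 0.00 and 0.10 (edgeR adjusted p = 0.993 and 0.601). Npc2 was at 196 to 244 CPM with oil and at 214 to 242 CPM with tamoxifen, and Npc1 at 33.9 to 38.9 CPM and 30.8 to 39.0 CPM. Stard4, a cytosolic sterol carrier, was at 94.7 to 111 CPM with oil and at 89.6 to 97.4 CPM with tamoxifen (log2 fold change -0.15, edgeR adjusted p = 0.385).

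Of the lipogenic enzymes, Acaca, which makes malonyl-CoA, was at 57.3, 44.5 and 51.8 CPM with oil and at 27.1, 36.5 and 51.8 CPM with tamoxifen. As for the late sterol steps, tamoxifen 1 and 2 lay below every oil library and tamoxifen 4 within their range (log2 fold change -0.41, SE 0.22, edgeR adjusted p = 0.316). Fasn, which builds palmitate, was at 318, 246 and 301 CPM with oil and at 216, 257 and 316 CPM with tamoxifen (log2 fold change -0.13, edgeR adjusted p = 0.634). Scd2, which introduces a double bond into fatty acids, was at 957 ± 166 CPM with oil and 966 ± 113 CPM with tamoxifen (SD, n = 3, log2 fold change 0.01, edgeR adjusted p = 0.964). Scd2 has close relatives in the mouse genome, so its reads may be shared with them.

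Within the tamoxifen group the members did not move alike. Tamoxifen 1 lay below all 3 oil libraries for 21 of 32 members, or 65.6%, where 39.4% of all genes tested did so. Tamoxifen 2 did so for 15 members (46.9%, against 39.2% of all genes) and tamoxifen 4 for 6 (18.8%, against 30.4%). Above all oil libraries lay 3 members in tamoxifen 1 (9.38%, against 38.7%), 5 in tamoxifen 2 (15.6%, against 40.1%) and 7 in tamoxifen 4 (21.9%, against 31.4%). Tamoxifen 1 and 2 were both below every oil library for 13 members (40.6%, against 30.6%): Fdps, Sqle, Cyp51, Lbr, Nsdhl, Ebp, Sc5d, Srebf1, Srebf2, Scap, Insig1, Nr1h2 and Acaca. The groups as a whole did not overlap for only 3 members below oil (Srebf2, Scap and Nr1h2, 9.38%, against 11.8% of all genes) and 3 above (Fdft1, Insig2 and Soat1, 9.38%, against 13.3%), shares that were no higher than those of all genes.

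**Figure D4:**
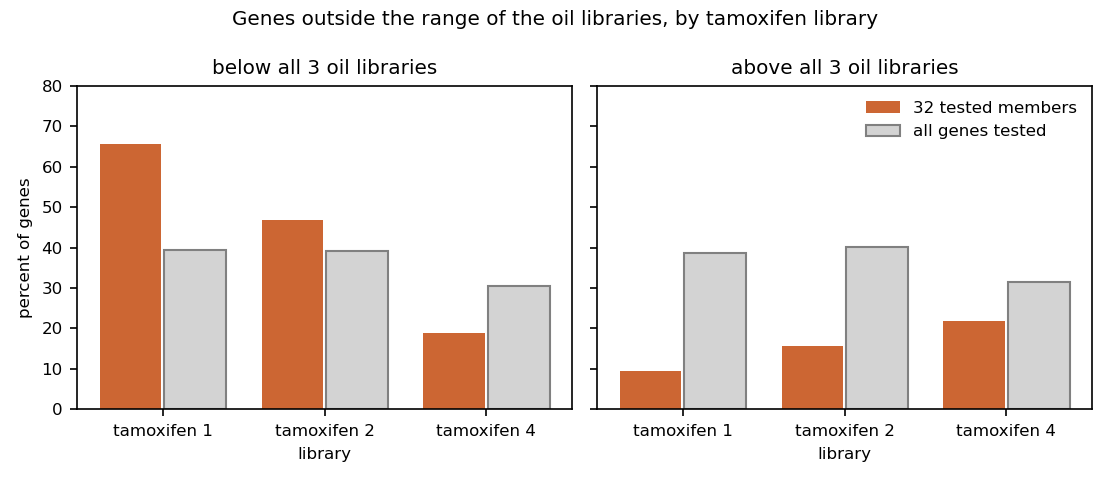
Share of the 32 tested members and of all 11614 genes tested that lay below or above all 3 oil libraries, in percent, for each tamoxifen library. The members exceed all genes only for the share below oil in tamoxifen 1 (65.6% against 39.4%) and tamoxifen 2 (46.9% against 39.2%).

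The oil group was uneven too. Oil 3 was the lowest oil library for 23 of 32 members (71.9%, against 34.6% of all genes tested), oil 1 for 3 (9.38%, against 33.7%) and oil 4 for 6 (18.8%, against 31.8%), and the median member shift from the oil mean was 0.07, -0.13 and 0.03 on the log2 scale in oil 1, 3 and 4. In tamoxifen 1, 2 and 4 it was -0.30, -0.13 and -0.02, so the members of tamoxifen 2 sat as low as those of oil 3. The erythroid markers summed to 3511, 4290 and 2781 CPM with oil and to 4924, 5114 and 2247 CPM with tamoxifen, so they were highest in oil 3 and in tamoxifen 1 and 2, the libraries in which the members sat lowest, and their part in the member values was not tested. Cd34 and Kit, given at the start, were highest in tamoxifen 1 and 2 but not raised in oil 3. By role, the median shift in tamoxifen 1, 2 and 4 was -0.31, -0.10 and -0.05 for the mevalonate steps and -0.35, -0.23 and -0.01 for the steps after lanosterol. It was -0.34, -0.20 and -0.19 for the regulators, where tamoxifen 4 stayed near tamoxifen 2, and 0.13, 0.14 and -0.07 for uptake, transport and esterification. Without oil 3, 12 members (37.5%, against 16.7% of all genes) lay below oil without overlap and 4 above (12.5%, against 17.6%), and edgeR called 0 members.

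The number of called members turned on tamoxifen 4. Without it, 10 members were called lower in edgeR (31.2%, where 17.1% of all genes were called lower): Fdps, Sqle, Cyp51, Lbr, Ebp, Srebf1, Srebf2, Insig1, Nr1h2 and Acaca. The steepest were Insig1 with a log2 fold change of -0.89 (edgeR adjusted p = 0.00391), Fdps with -0.78 (0.00241), Sqle with -0.71 (0.00124) and Acaca with -0.68 (0.00544). Called higher were 2 members, Soat1 with 1.09 (edgeR adjusted p = 0.0149) and Fdft1 with 0.40 (0.00439), or 6.25% where 19.2% of all genes were called higher. At an unadjusted p-value under 0.05 it gave 14 members lower, where 22.5% of all genes were lower, and 2 higher, where 23.9% were higher. This fit rests on 2 tamoxifen libraries and called 2278 genes higher and 2024 lower in all, against 203 and 31 with all 6 libraries.

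Genes that sit beside the members in the pathway were described from lists. The list of LXR targets and efflux genes also held the cofactor genes Ncor1 and Ncoa1 and the receptor gene Nr1h4, which are neither. Of its 10 genes 9 were tested, all but Nr1h4. In edgeR 1 was called higher and 0 lower (1.75% and 0.267% of all genes). At an unadjusted p-value under 0.05, 5 were higher (12.6% of all genes). The median log2 fold change was 0.42 against 0.00 over all genes, with Ncor1 and Ncoa1 at -0.13 and -0.44. The called gene was Abca1, which exports cholesterol to apolipoproteins (chromosome 4, 53030787 to 53159895, minus strand). It was at 44.5, 41.0 and 47.6 CPM with oil and at 130, 161 and 80.5 CPM with tamoxifen. Every tamoxifen library lay above every oil library, and Abca1 rose by 1.48 on the log2 scale (SE 0.23, edgeR adjusted p = 0.0325, DESeq2 adjusted p = 1.96e-08). The edgeR call was lost when any of the libraries other than tamoxifen 4 was left out (adjusted p = 0.0692 to 0.187), and was 9.19e-06 without tamoxifen 4. Apoe, the apolipoprotein that takes up exported cholesterol, was at 5.43 ± 0.906 CPM with oil and 9.33 ± 1.33 CPM with tamoxifen (log2 fold change 0.78, edgeR adjusted p = 0.0965). Mylip, the ligase that marks lipoprotein receptors for breakdown, was at 31.1 ± 0.894 and 48.6 ± 19.7 CPM (0.64, edgeR adjusted p = 0.240). Srebf1, though LXR can drive it too, was lower in value as described. Without tamoxifen 4, 6 of the 9 were called higher in edgeR, where 19.2% of all genes were.

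The enzymes that make oxysterols were barely detected. Of 6 oxysterol and bile acid genes 1 was tested, and Ch25h and Cyp27a1, which hydroxylate cholesterol, held 0 counts in every library, which allows up to 0.145 to 0.177 CPM. Hsd3b7, which acts on oxysterols, was at 102 ± 11.4 CPM with oil and 100 ± 15.2 CPM with tamoxifen (SD, n = 3, log2 fold change -0.03), and its exons overlap other gene models.

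Of the 12 uptake and transport genes tested, 1 was called higher and 0 lower in edgeR (1.75% and 0.267% of all genes), and the median log2 fold change was 0.04. Without tamoxifen 4, 2 were called higher (19.2% of all genes) and 1 lower (17.1%). The called gene was Stard5, a sterol and bile acid carrier, at 2.98, 3.10 and 3.19 CPM with oil and at 8.12, 10.1 and 5.97 CPM with tamoxifen. It rose by 1.38 on the log2 scale without overlap (SE 0.24, edgeR adjusted p = 0.0399), a call that was lost without any of the libraries other than tamoxifen 4 (adjusted p = 0.104 to 0.204). Stard5 shares exon bases with Il16 on the opposite strand. Gramd1a, which carries sterol between membranes, and Tmem97, a sterol-regulated binding partner of Npc1, had log2 fold changes of 0.30 and -0.19 (edgeR adjusted p = 0.302 and 0.625), and without tamoxifen 4 of 0.44 and -0.51 (0.0104 and 0.00384).

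Of the 11 SREBP processing and degradation genes tested, 0 were called in either direction in edgeR (1.75% of all genes higher and 0.267% lower) and 1 was higher at an unadjusted p-value under 0.05 (12.6%), with a median log2 fold change of -0.01. That gene was Erlin1, which takes part in sterol-driven protein degradation, at 32.7 ± 0.688 CPM with oil and 46.0 ± 6.21 CPM with tamoxifen (log2 fold change 0.49, edgeR adjusted p = 0.0827). Mbtps2, a protease that cuts SREBP, had a log2 fold change of 0.18. Without tamoxifen 4, 1 gene of this list was called higher, Erlin1 (0.60, edgeR adjusted p = 0.000781), and 1 lower. Of the 12 genes listed for the isoprenoid branch, 0 were called in edgeR (1.75% of all genes higher and 0.267% lower). Of these genes 0 had an unadjusted p-value under 0.05 (12.6% higher and 7.99% lower), with a median of -0.00. Their largest differences in value were those of Pdss2, Dhdds and Rce1, at -0.35, -0.30 and -0.20. Without tamoxifen 4, Pdss2, Dhdds and Zmpste24 were called lower (edgeR adjusted p = 0.0487, 0.00841 and 0.0132), or 3 of 12 where 17.1% of all genes were, and 0 higher. Of the 14 fatty acid partners tested, 0 were called in edgeR and 0 had an unadjusted p-value under 0.05 (the same shares of all genes), with a median of -0.06. Without tamoxifen 4, 4 were called lower (17.1% of all genes) and 1 higher (19.2%). Fads2, a desaturase of polyunsaturated fatty acids, was at 18.1, 11.2 and 17.5 CPM with oil and at 4.99, 4.96 and 16.6 CPM with tamoxifen, which again set tamoxifen 1 and 2 below oil and tamoxifen 4 inside its range (log2 fold change -0.82, edgeR adjusted p = 0.337, and -1.65 with 0.00065 without tamoxifen 4). Acacb and Lpin1 had log2 fold changes of 0.61 and 0.31.

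**Figure D5:**
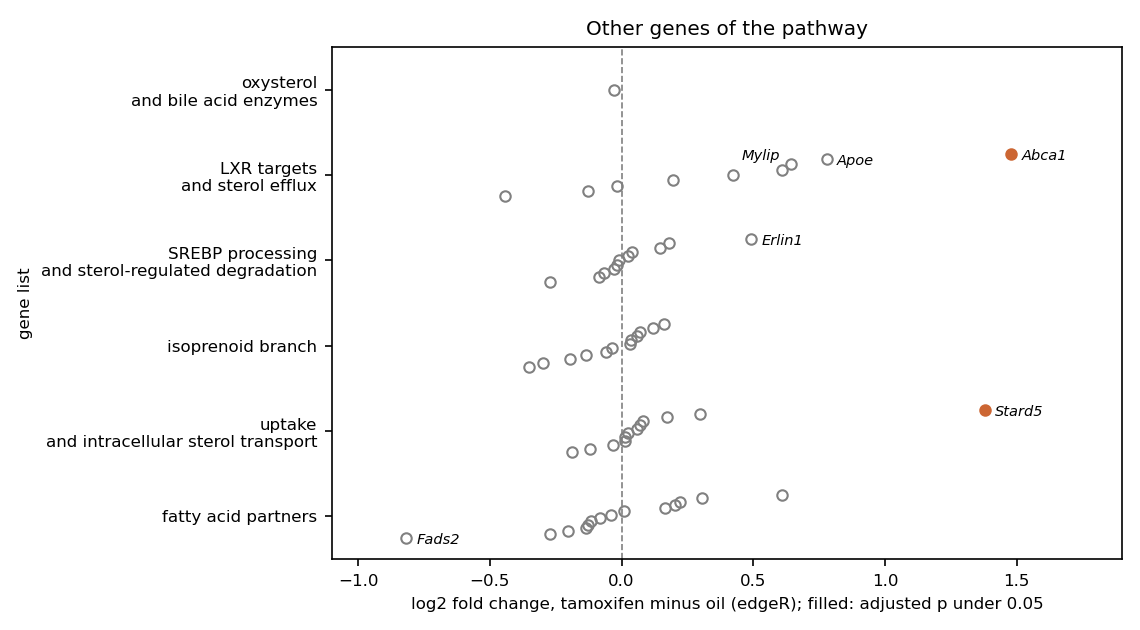
Log2 fold change, tamoxifen minus oil, of each tested gene of the 6 further lists, with 1 point for each gene and filled points where the edgeR adjusted p-value was under 0.05. Abca1 at 1.48 and Stard5 at 1.38 are the 2 filled points, and the isoprenoid genes lie close to 0.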

How the data were processed

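Estimated counts by gene symbol, unscaled between libraries, were deposited by the authors in 1 table with a column for each of the 6 libraries. They came in steps of 0.5, with 25.9% to 27.3% of a library's values not whole, and were rounded before testing. The submitters' processing notes name STAR, DESeq2 and mm10. The counting program, its strand setting and the annotation are not given in the sources used here, and the labels name a DNA library kit. No label or paper statement pairs libraries of the groups. Sample titles give oil the numbers 1, 2 and 4 and tamoxifen 1, 3 and 4, but the columns give oil 1, 3 and 4 and tamoxifen 1, 2 and 4. Libraries carry the column numbers here, and the columns oil 3 and tamoxifen 2 entered only by the group in their name. The study's methods give n as mice.

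Counts were analyzed in R 4.3.3 with edgeR 4.0.16 (filterByExpr by group, TMM, quasi-likelihood F test, no block), with Benjamini-Hochberg adjustment over 11614 genes. CPM is the count over the tested genes' total after TMM scaling, and 3 counts were worth 0.145 to 0.177 CPM, a floor that covers counting error only. Shifts by library used log2 CPM with a prior count of 2. Intervals used the F statistics and a t quantile of 2.30. In 26 rows the symbol had become a date, and these were not named. Gene coordinates and exon lengths came from GENCODE on GRCm38, the build also called mm10, and promoters from RefSeq. Alternatives were DESeq2 1.42.0, limma-voom (limma 3.58.1), other normalizations and filters, a replicate block and leaving out each library. The members, the lists and the rules for naming genes were chosen with earlier results of these data known: every member is named, and of each further list at most 3 tested genes by absolute log2 fold change. Zmpste24, Vcam1, Cd68, C1qa, C1qb, C1qc, Csf1r, Ncor1, Ncoa1 and Nr1h4 were named after their values were seen. Some genes that this rule would name are not reported here. Scripts were tested on simulated data.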

Additional observations from a re-analysis of the deposited data

How the results depend on the processing

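The median log2 fold change of the members stayed below 0 in every setting, and lay between -0.22 and -0.09 when 1 library was left out. Of the 32 tested members, 24 kept their direction in every setting. Members called higher numbered 1 with DESeq2 and 1 without a low-count filter, and 0 to 2 when 1 library was left out. Members called lower numbered 0 to 10 when 1 library was left out, and only leaving out tamoxifen 4 gave any. At an unadjusted p-value under 0.05, 1 member was higher with DESeq2 (12.8% of all genes), with limma-voom (11.1%) and with a replicate block. When 1 library was left out, 1 to 2 were higher and 1 to 14 lower. The 14 came without tamoxifen 4, where 22.5% of all genes were lower and 23.9% higher. Shares of all genes at this threshold were not computed with the block or without the other libraries. Members below oil without overlap numbered 3 to 13 when 1 library was left out. There were 12 without oil 3 (37.5%, against 16.7% of all genes) and 13 without tamoxifen 4 (40.6%, against 30.6%). Without oil 4 there were 6, and the share of all genes was not computed for that or the remaining settings. Genes called higher and lower numbered 749 and 223 with DESeq2, 48 and 6 with limma-voom, 372 and 61 without a filter, 120 and 17 with a filter at a mean of 50 counts, and 8 to 2278 and 0 to 2024 when 1 library was left out.

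The directions that turned belonged to members with fold changes near 0. Hmgcs1 was at 0.0015 with upper-quartile normalization, Msmo1 at 0.0058 and Hsd17b7 at 0.015. With the filter at 50 counts Msmo1 was at 0.0015 and Hsd17b7 at 0.0097, and Hsd17b7 was at 0.00077 with unrounded counts. Npc1 was at -0.0015 with DESeq2, -0.0054 with limma-voom, -0.0055 without a filter and -0.0053 with the replicate block, and Scd2 at -0.22 with the block. When 1 library was left out, log2 fold changes ranged from -0.082 to 0.060 for Hmgcs1, from -0.39 to 0.16 for Mvk, from -0.20 to 0.091 for Mvd, from -0.13 to 0.032 for Lss, from -0.14 to 0.11 for Msmo1, from -0.15 to 0.075 for Hsd17b7, from -0.057 to 0.10 for Npc1 and from -0.13 to 0.093 for Scd2.

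The column numbers 1 and 4 occur in both groups. Deviations of same-numbered libraries from their group means correlated at -0.13 and 0.062. Deviations from a mean of 3 libraries are not independent, so these values cannot decide whether same-numbered libraries were handled together. The fit with the replicate block, which had 1 residual degree of freedom, called 0 members. Soat1 had a log2 fold change of 0.80 and an edgeR adjusted p of 0.316 with the block, and the block ended the call of Stard5 (log2 fold change 1.17, adjusted p = 0.123). The calls of Abca1 and Stard5 were also lost in limma-voom (adjusted p = 0.0545 and 0.0682). The causes of these differences between settings were not tested. With 3 libraries a group, the intervals of Idi1, Insig1 and Soat1 reached beyond a 2-fold change.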
